A study of Mus musculus with 8 samples.

Results

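The Hox genes were followed in RNA and DNA hydroxymethylation data from 2 cell populations of the mouse brain. Members were all gene symbols made of Hoxa, Hoxb, Hoxc or Hoxd and a number, which gave 39 of the 20488 gene symbols in the hydroxymethylation tables and 1 of the 11315 in the RNA tables. Adult oligodendrocyte progenitor cells (aOPC) were sorted from Pdgfra-H2BEGFP mice, in which the Pdgfra locus drives a nuclear EGFP, and adult oligodendrocytes (aOL) from Plp-EGFP mice, a reporter line that marks oligodendrocytes. Both groups were C57BL/6 brains at postnatal day 60, and no deletion or treatment is named for either. Each population had 2 RNA-sequencing and 2 reduced representation hydroxymethylation profiling (RRHP) libraries, numbered 2 and 3; replicate 1 was not used here. The aOL RRHP samples were grouped by their titles, since their tissue label names the Pdgfra reporter, and the aOL RNA titles speak of pre-myelinating cells where the extraction protocol has myelinating ones. The methods describe biological replicates but the labels do not tie a library to an animal, so p-values measure the spread between these libraries.

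Hox genes encode homeodomain transcription factors that give cells their position along the head-to-tail axis. In mammals they lie in 4 clusters, and their order along the chromosome follows the order of their expression domains, from the hindbrain for the low paralog numbers to the tail and distal limbs for the high ones. Outside those domains, as in most forebrain and midbrain cells, the clusters are held silent by polycomb complexes and are rich in CpG islands, the stretches of dense CpG that are mostly free of DNA methylation. 5-hydroxymethylcytosine (5hmC) is made from 5-methylcytosine by the TET enzymes. RRHP reads 5hmC at CCGG: once glucosylated, the mark blocks cutting by MspI, and uncut sites yield the reads, which are counted for each CpG site on each strand.

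The members fell into 4 clusters, given here from the first to the last site assigned to a member (GRCm38/mm10). The Hoxa cluster (chr6:52157555-52261855, 104 kb) held 11 members and 343 listed sites, of which 44.3% lay in CpG islands. The Hoxb cluster (chr11:96193583-96368145, 175 kb) had 10 members and 248 sites, 59.7% of them in islands, and the Hoxc cluster (chr15:102920168-103035956, 116 kb) had 9 members and 237 sites, 48.5% in islands. The Hoxd cluster (chr2:74667389-74764349, 97.0 kb) had 9 members and 336 sites, 46.1% in islands. In all, 570 of the 1164 member sites were in CpG islands (49.0%), compared with 21.6% of the sites of all annotated genes. The member sites were 1164 of the 1497075 in the tables.

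The strongest 5hmC site of each cluster lay outside CpG islands, and the sequence around each is shown because these sites had the highest mean CPM of their cluster, CPM being the count relative to the total of its library. The sequences are on the strand of the site, from the GRCm38 reference, with CCGG in capitals. They are, in order, an intron site of Hoxc9 on chromosome 15 at position 102978986 (minus strand), a site in the UTR of exon 3 of Hoxd3 on chromosome 2 at position 74747789 (plus strand, shown with a shorter context), an intron site of Hoxa3 on chromosome 6 at position 52171683 (minus strand), and a coding site in exon 1 of Hoxb13 on chromosome 11 at position 96194971 (minus strand), with exon parts from the GENCODE annotation.
Hoxc9: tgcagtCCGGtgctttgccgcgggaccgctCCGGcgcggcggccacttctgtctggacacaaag
Hoxd3: agagtcaggcagcCCGGtggcaggactcac
Hoxa3: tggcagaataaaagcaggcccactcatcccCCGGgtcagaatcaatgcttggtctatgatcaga
Hoxb13: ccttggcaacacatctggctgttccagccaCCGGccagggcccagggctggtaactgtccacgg

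Their surroundings held 11, 12, 6 and 15 CpG in 500 bp, respectively. The Hoxc9 site had 31 counts in aOPC replicate 2, 62 in aOPC replicate 3, 35 in aOL replicate 2 and 61 in aOL replicate 3, or 4.36, 3.62, 2.20 and 2.25 CPM. CPM thus corrects for depth. It is a share of the library, so a change of 5hmC over the whole genome would not show in it. The same holds for the tests, which scale each library. The groups did not overlap, with both aOL libraries lower, but the log2 difference of -0.91 (SE 0.33) did not pass the edgeR quasi-likelihood test (adjusted p = 0.284). At the Hoxd3 site the counts were 23, 66, 40 and 71 in the same order, or 3.23, 3.85, 2.51 and 2.62 CPM. Again both aOL libraries were below both aOPC libraries, by -0.57 on the log2 scale (SE 0.31, edgeR adjusted p = 0.622). The Hoxa3 site had 26, 41, 40 and 51 counts, or 3.66, 2.39, 2.51 and 1.88 CPM, with overlapping groups (log2 difference -0.53, SE 0.37, edgeR adjusted p = 0.733). Without aOPC replicate 2, the library described below as standing apart, the 3 differences were -0.68 (Hoxc9), -0.56 (Hoxd3) and -0.13 (Hoxa3). The Hoxa3 site led its cluster through that library alone: in the other 3 libraries a site in the Hoxa6 promoter (chromosome 6, position 52209540) was higher, at 2.98, 2.76 and 2.55 CPM against 1.83 CPM in aOPC replicate 2. At Hoxb13, with 8, 9, 5 and 28 counts, the site was below the depth needed for a test.

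Promoter windows (RefSeq, GRCm38.p6, 250 bases before to 50 after the gene start) were found for 22 of the 39 symbols. The Hox windows had a median of 14.5 CpG, against 7 in windows of all genes, so the shares that follow are not matched for CpG. The motif CCGG, which is its own reverse complement, occurred in 19 of the 24 Hox windows (79.2%), against 52.8% of 32851 windows of all genes. Of these, 3 Hoxd windows are shown because they span the range from many CCGG with few counts to few CCGG with many counts; they were chosen after their values were seen. Each is written on the plus strand of the gene with CCGG in capitals, from chr2:74691641-74691940 (Hoxd10), chr2:74721728-74722027 (Hoxd4) and chr2:74762730-74763029 (Hoxd1).
Hoxd10: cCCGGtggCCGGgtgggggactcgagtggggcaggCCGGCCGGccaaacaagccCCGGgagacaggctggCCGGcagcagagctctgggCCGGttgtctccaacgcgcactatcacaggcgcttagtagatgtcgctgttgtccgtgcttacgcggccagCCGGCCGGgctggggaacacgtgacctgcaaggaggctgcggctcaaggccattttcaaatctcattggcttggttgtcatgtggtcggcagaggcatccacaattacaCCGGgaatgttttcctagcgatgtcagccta
Hoxd4: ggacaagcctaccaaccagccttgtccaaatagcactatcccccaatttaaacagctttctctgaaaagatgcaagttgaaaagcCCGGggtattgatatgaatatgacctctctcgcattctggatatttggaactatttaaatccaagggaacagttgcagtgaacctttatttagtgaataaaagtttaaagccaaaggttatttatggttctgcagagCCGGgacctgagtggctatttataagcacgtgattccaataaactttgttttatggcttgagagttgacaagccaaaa
Hoxd1: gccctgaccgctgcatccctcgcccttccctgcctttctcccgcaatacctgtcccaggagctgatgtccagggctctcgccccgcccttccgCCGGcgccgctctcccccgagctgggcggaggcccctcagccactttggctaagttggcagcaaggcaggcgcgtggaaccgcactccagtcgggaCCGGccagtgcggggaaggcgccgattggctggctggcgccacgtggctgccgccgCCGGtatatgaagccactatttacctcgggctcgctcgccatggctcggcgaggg

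The Hoxd10 window, with 10 CCGG and 22 CpG, had 15 and 4 counts in the aOPC pair and 8 and 8 in the aOL pair. The Hoxd4 window, with 2 CCGG and 4 CpG, had 12, 21, 21 and 62 counts. The Hoxd1 window, with 3 CCGG and 29 CpG, had 19, 17, 10 and 25 counts. Per CCGG site and strand, the Hoxd4 window was above the Hoxd10 window in each of the 4 libraries, at 0.422, 0.307, 0.330 and 0.573 CPM against 0.105, 0.0117, 0.0251 and 0.0148 CPM.

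The aOPC libraries summed to 7113237 (replicate 2) and 17121440 (replicate 3) counts and the aOL libraries to 15923775 and 27057859, and a floor of 3 counts was 0.422, 0.175, 0.188 and 0.111 CPM. aOPC replicate 2 stood apart from the other 3: CpG islands took 5.74% of its counts, against 2.47%, 2.38% and 3.32%. Over the 1164 member sites its counts had a Pearson correlation of 0.65 to 0.68 with those of the other libraries, which correlated at 0.81 to 0.82 with each other, whereas the Spearman correlations overlapped (0.543 to 0.593 and 0.554 to 0.611). These points share depth and base composition. In the rest of the genome its level at sites with 41 to 60 CpG in 500 bp was 0.196 CPM, against 0.0736, 0.0694 and 0.105 CPM. The ratios and medians that compare 5hmC between the populations are therefore also given without this library. In RNA, the oligodendrocyte marker list (10 of 10 listed) had a median log2 value of 17.8 and 17.2 in the aOPC pair and 17.5 and 17.6 in the aOL pair. The aOPC libraries thus carried oligodendrocyte markers at the level of the aOL libraries, whereas the progenitor marker Pdgfra was at 7.54 and 5.47 in the aOPC pair and 4.98 and 1.63 in the aOL pair. The progenitor list as a whole was split, with 5 of 11 markers tested higher in aOL, 6 lower and 0 called by limma, and the split was 6 higher and 5 lower without aOPC replicate 2 and 2 higher and 9 lower without aOPC replicate 3. Of these 11 markers 3, Pdgfra included, passed the filter on low values (a log2 value of 5 in 2 libraries) through the aOPC libraries alone. How far the mixture of cells moved the values below was not tested, and in such bulk samples a change in cell shares and a change per cell cannot be told apart.

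The Hox clusters had fewer 5hmC counts per CCGG site than the rest of the genome in all 4 libraries, and the deficit was larger in the 3 libraries other than aOPC replicate 2. The clusters hold 2740 CCGG sites and strands in the reference, with 26.8 CpG per 500 bp on average, against 12.03 in the rest of the genome. Their mean level was 0.247 and 0.119 CPM per site and strand in the aOPC pair and 0.108 and 0.133 CPM in the aOL pair. The rest of the genome was at 0.306 or 0.307 CPM in every library, a value set by the scaling, since it holds nearly all counts. The clusters were 1.24, 2.58, 2.84 and 2.31-fold below it, with a mean of 2.24-fold. With only sites of at least 3 reads in every library, the clusters were at 0.102, 0.0601, 0.0555 and 0.0577 CPM. The rest was then at 0.255, 0.261, 0.260 and 0.253 CPM, a larger fold in each library. The 200 kb on each side of the clusters were at 0.250, 0.226, 0.230 and 0.232 CPM. The other 3 libraries were 1.90, 2.12 and 1.75-fold below the flanks, while aOPC replicate 2 was 1.01-fold below over the 4 clusters together, which went both ways: Hoxb and Hoxc were below their flanks (1.098 and 1.22-fold) and Hoxa and Hoxd above (0.820 and 0.836). These rates are a description with no test, since sites of one library are not replicates.

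**Figure D1:**
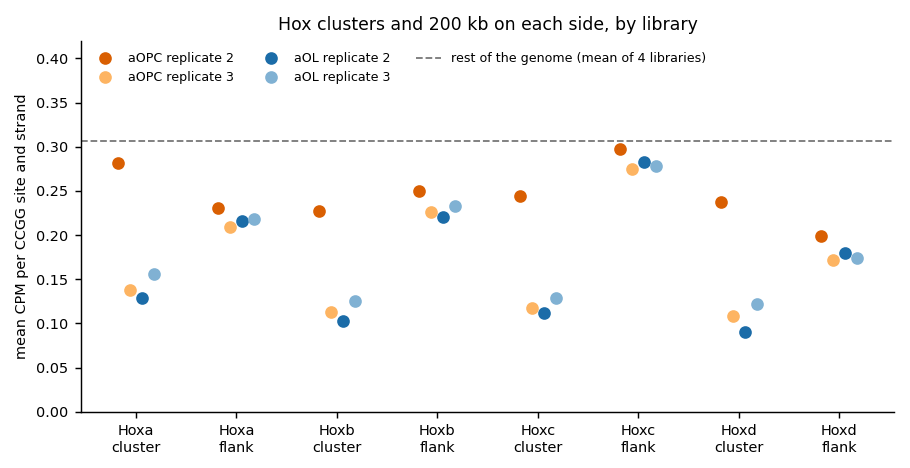
Mean CPM per CCGG site and strand (y axis) in each Hox cluster and in the 200 kb on each side of it (x axis), 1 point per library; the dashed line is the mean of the rest of the genome. In each cluster aOPC replicate 2 lies highest and the other 3 libraries lie between 0.0908 and 0.156 CPM.

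All 4 clusters shared this order of libraries. The Hoxa cluster was at 0.281 and 0.138 CPM per site and strand in the aOPC pair and 0.128 and 0.156 CPM in the aOL pair, the highest of the 4 clusters in each library. The Hoxb cluster was at 0.227, 0.113, 0.102 and 0.125 CPM and the Hoxc cluster at 0.245, 0.117, 0.112 and 0.129 CPM. The Hoxd cluster, which had the densest CpG (32.5 per 500 bp), was at 0.238, 0.108, 0.0908 and 0.122 CPM. Apart from Hoxa, the clusters did not keep 1 order across the libraries. Over all densities the clusters were not short of read sites: 49.3%, 47.9%, 46.8% and 57.1% of their CCGG sites and strands had at least 1 read, against 30.8%, 34.0%, 33.8% and 38.9% in the rest of the genome. These shares are not matched for CpG density: at 16 to 20 CpG in 500 bp they were 53.99%, 54.2%, 52.8% and 61.03% in the clusters and 49.04%, 52.9%, 51.6% and 57.9% in the rest, about equal at 41 to 60 CpG, and at 61 to 109 CpG lower in the clusters, at 34.0%, 26.5%, 25.9% and 42.6% against 41.3%, 35.4%, 30.6% and 50.4%. The median over the listed member sites was 2, 2, 1 and 4 counts.

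At matched CpG density, the deficit was largest at 11 to 20 CpG in the 3 libraries other than aOPC replicate 2, and smallest at 41 to 60 and at 1 to 5 CpG. At sites with 11 to 15 CpG in 500 bp, where the rest of the genome peaked, the clusters were at 0.333, 0.163, 0.140 and 0.168 CPM and the rest at 0.553, 0.533, 0.520 and 0.528 CPM, which is 1.66, 3.27, 3.70 and 3.15-fold lower. At sites with 41 to 60 CpG the clusters were 1.05, 1.23, 1.31 and 1.31-fold lower. At sites with 1 to 5 CpG they were 1.04, 1.42, 1.36 and 1.26-fold lower, and at the densest sites, with 61 to 109 CpG, 1.63, 1.89, 2.19 and 1.83-fold, though these rest on 63 to 219 counts a library. Across the band from 11 to 30 CpG, which was added after the data were seen, the clusters were at 0.297, 0.137, 0.122 and 0.152 CPM against 0.481, 0.443, 0.427 and 0.458 CPM. Within that band the Hoxb cluster was 1.83, 3.82, 3.89 and 3.32-fold below the rest of the genome, and the Hoxa cluster 1.51, 2.87, 3.07 and 2.62-fold. In both clusters the fold was smallest in aOPC replicate 2.

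**Figure D2:**
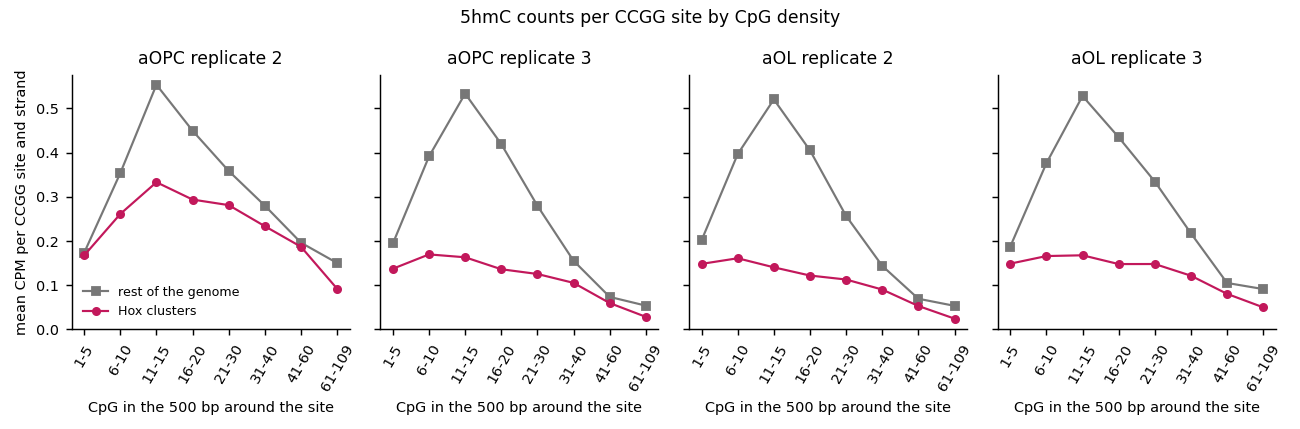
Mean CPM per CCGG site and strand (y axis) by the number of CpG in the 500 bp around the site (x axis), for the Hox clusters (circles) and the rest of the genome (squares), 1 panel per library. The rest of the genome peaks at 11 to 15 CpG in each library, at 0.520 to 0.553 CPM, while the Hox clusters stay at or below 0.333 CPM.

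The files' own CpG island column gave a like picture. Outside islands, the listed Hox sites had 0.480, 0.236, 0.214 and 0.256 CPM per site in aOPC replicates 2 and 3 and aOL replicates 2 and 3, while sites of all annotated genes had 0.806, 0.881, 0.899 and 0.856 CPM. In islands, the Hox sites had 0.285, 0.105, 0.0890 and 0.133 CPM and those of all genes 0.324, 0.137, 0.128 and 0.181 CPM. The fold below all genes was thus 1.68, 3.73, 4.21 and 3.34 outside islands and 1.14, 1.31, 1.44 and 1.36 in them. Outside islands it was largest in exons (1.86, 4.38, 4.89 and 3.99-fold) and smaller in introns (1.61, 3.51, 3.81 and 3.06-fold) and at sites that were in a promoter alone (1.53, 2.47, 3.05 and 2.39-fold). In islands, exon sites of Hox genes were 1.29, 1.72, 1.93 and 1.77-fold below those of all genes, and at sites in a promoter alone the libraries went both ways, with all genes over Hox genes at 1.06, 0.875, 0.901 and 1.04. Islands held 36.3% (95% Wilson interval 34.64 to 37.98), 29.8% (28.3 to 31.4), 28.6% (26.9 to 30.2) and 33.3% (32.1 to 34.5) of the member counts, and the interval covers counting error only. The ratio of aOL over aOPC in this share was 0.935, with overlapping groups (exact two-sided permutation p = 0.667, where 0.333 is the smallest possible), and without aOPC replicate 2 it was 1.04. The Hoxb members had the largest island share, at 49.5%, 47.6%, 46.0% and 53.4%.

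Counts were uneven along the clusters. Of the 1164 member sites, 618 were read in all 4 libraries and 144 in just a single library. The 5 strongest Hoxc sites held 13.9%, 22.3%, 16.7% and 15.4% of the counts of the Hoxc members, and 2 of the 3 strongest sites of that cluster were on opposite strands of neighbouring CCGG in the Hoxc9 intron. In the Hoxb cluster the 5 strongest held 8.04%, 7.54%, 9.73% and 8.31%, and no Hoxb site reached the levels seen at Hoxa3, Hoxc9 and Hoxd3.

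**Figure D3:**
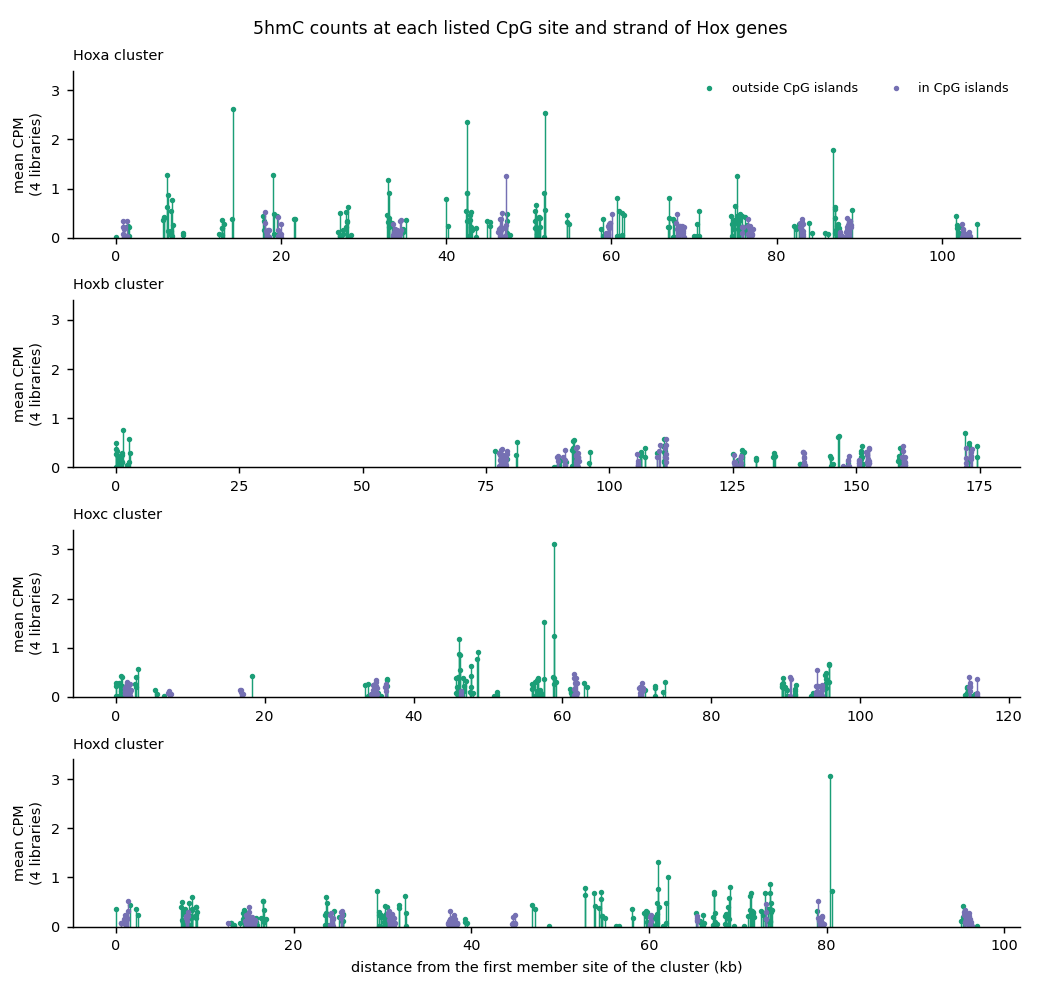
Mean CPM of the 4 libraries (y axis) at each listed CpG site and strand of a Hox member by its distance from the first member site of its cluster in kb (x axis), 1 panel per cluster, coloured by CpG island status. The tallest lines, at 2.61 CPM in Hoxa, 3.11 in Hoxc and 3.06 in Hoxd, are outside islands, and Hoxb stays at or below 0.750 CPM.

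Over whole gene spans, which used each CCGG of the reference between the ends of a gene, the members lay low among 17594 protein-coding genes with at least 5 CCGG. By the mean of the 4 libraries their median percentile was 20.4, 38 of 39 were below the median of all genes, 25 were in the lowest 25% of genes and 6 in the lowest 10%. A list of 50 other developmental homeobox genes (such as Dlx, Pax and Nkx members) had a median percentile of 31.5, with 42 below the median and 19 in the lowest 25%. The libraries differed: 26 of the 39 members were below the median of all genes in aOPC replicate 2, against 39, 38 and 38 in the other 3, with median percentiles of 38.4, 19.1, 16.8 and 18.02. Without aOPC replicate 2 the median percentile was 16.3 for the Hox genes and 26.9 for the other homeobox list. The lowest members were Hoxd8 (percentile 3.71), Hoxd1 (5.16) and Hoxa13 (7.41). The highest was Hoxa2, a regulator of hindbrain and branchial arch identity, at percentile 60.8 by the mean and 80.8, 49.9, 56.6 and 52.2 in the single libraries, so that it lay near the median in the 3 libraries other than aOPC replicate 2. Hoxd12 (47.9) and Hoxb5 (47.0) followed, and without aOPC replicate 2 they were at 37.2 and 33.4. By position in the clusters, gene-body sites of paralog groups 1 to 4 had 0.410, 0.193, 0.175 and 0.223 CPM per listed site, groups 5 to 8 had 0.366, 0.139, 0.127 and 0.166, and groups 9 to 13 had 0.375, 0.158, 0.142 and 0.184. The order of the 3 sets was the same in each library, with 1 to 4 highest and 5 to 8 lowest. Their shares of sites in CpG islands, where levels were lower, had the reverse order, at 45.1% (1 to 4), 58.9% (5 to 8) and 53.6% (9 to 13), and the part of islands in the order was not tested.

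To ask whether the clusters' share of the 5hmC counts differed between progenitors and oligodendrocytes, counts were summed over each cluster. Over all 4 clusters there were 676 and 325 CPM in the aOPC pair and 296 and 364 CPM in the aOL pair. aOPC replicate 2 was about as far above the other aOPC library as above the aOL libraries, and the groups overlapped. The ratio of aOL over aOPC was 0.659 (exact two-sided permutation p = 0.667) and 1.01 without aOPC replicate 2. Each cluster gave the same picture. Hoxa had 189, 92.6, 86.2 and 105 CPM (ratio 0.679, and 1.03 without aOPC replicate 2), and Hoxb had 180, 89.5, 81.1 and 99.3 CPM (0.670 and 1.01). Hoxc had 151, 72.1, 68.9 and 79.2 CPM (0.665 and 1.03), and Hoxd had 157, 71.3, 59.9 and 80.3 CPM (0.615 and 0.983). The exact permutation p was 0.667 for each. A scale based on sequenced reads per library, in place of summed counts, was added after the data were seen. On it the ratios were 0.953, 0.938, 0.934 and 0.870. The deposited counts were a smaller part of the sequenced reads in aOPC replicate 2 than in the other libraries, so its level depends on which total is used.

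Gene bodies were tested for 38 of the 39 members, the other having too few counts. By edgeR's quasi-likelihood test 0 were called at an adjusted p under 0.05, compared with 0.849% of 18488 gene bodies (157), and DESeq2 called 0 as well. The lowest adjusted p was 0.558. Before adjustment p was under 0.05 for 2 members, both lower in aOL, Hoxa10 (log2 difference -0.70, SE 0.26) and Hoxd3 (-0.59, SE 0.26), against 4.48% of all gene bodies, and without aOPC replicate 2 these were -0.22 and -0.05. All 38 log2 differences were below 0, from -1.43 in Hoxd10 to -0.10 in Hoxc11, with a median of -0.67, while the median of all gene bodies was -0.003. Some members, such as Hoxd3 and Hoxd4, share sites, so the 38 are not all separate measurements. The list of other homeobox genes shared the direction, with 45 of 50 below 0, a median of -0.48 and 0 called, beside 50.4% of all gene bodies below 0, and without aOPC replicate 2 it had 29 of 50 below 0 and a median of -0.01. The direction followed a single library: aOPC replicate 2 was the highest of the 4 libraries in 38 of 38 members, and in 39.6% of all gene bodies. Without it the median was 0.06, with 22 members higher, 16 lower and 0 called. Without aOPC replicate 3 instead, the median was -1.21 and 30 members were called lower, beside 12.5% of all gene bodies; the lone aOPC library is then assumed to vary like the aOL pair.

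**Figure D4:**
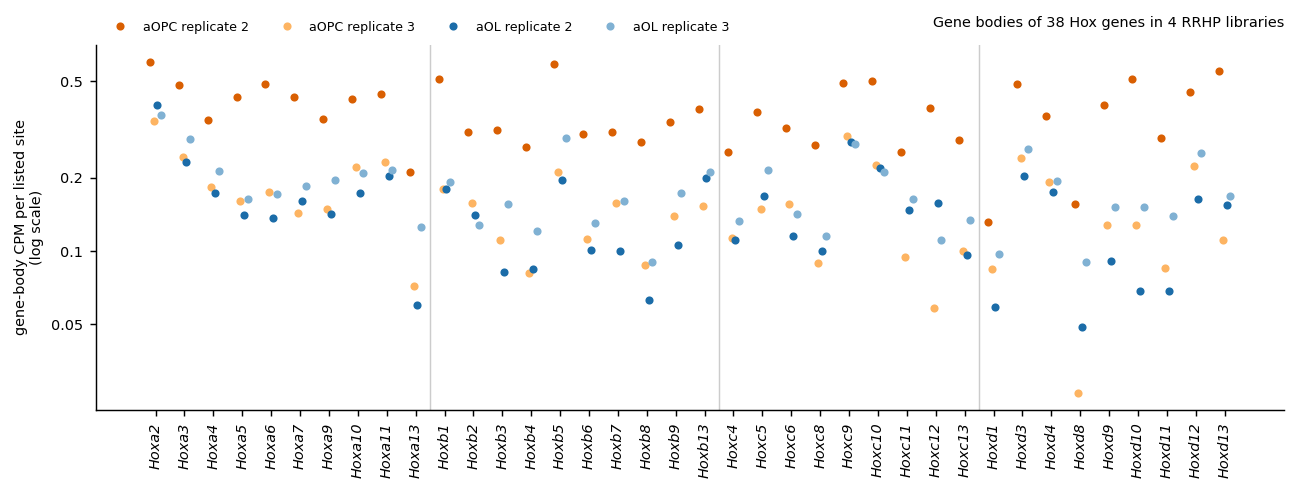
Gene-body CPM divided by the number of listed sites (y axis, log scale) for 38 Hox genes in order along each cluster (x axis), 1 point per library; grey lines separate the clusters. aOPC replicate 2 is the highest point of each gene, and aOPC replicate 3 lies near the aOL libraries.

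Both aOL libraries were below both aOPC libraries in 7 members (Hoxa6, Hoxa10, Hoxa11, Hoxb2, Hoxc6, Hoxc9 and Hoxc10), or 18.4% of the 38, beside 17.8% of all gene bodies, so the share was near the background.

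Within the Hoxa cluster, Hoxa2, Hoxa3 and Hoxa11 had the highest mean level per listed gene-body site. Hoxa2, which had 14 sites and none in an island, was at 8.43 and 4.79 CPM in the aOPC pair and 5.59 and 5.10 CPM in the aOL pair, and the aOL libraries lay between the aOPC libraries. Hoxa3, required for the thymus and parathyroid, had 96 sites and 46.3, 23.3, 22.4 and 27.7 CPM. Its span holds Hoxa4, Hoxa5 and Hoxa6, and a site named for more than 1 gene counts for each. Hoxa11, a limb and kidney regulator, was at 8.86, 4.67, 4.08 and 4.32 CPM. The log2 differences were -0.27 (SE 0.32), -0.43 (SE 0.25) and -0.65 (SE 0.35), none called, and without aOPC replicate 2 they were 0.13, 0.095 and -0.17. Lowest of the Hoxa genes tested was Hoxa13, which patterns digits and the genital tubercle, at 4.64, 1.58, 1.32 and 2.77 CPM over 22 sites.

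In the Hoxb cluster, Hoxb5, Hoxb1 and Hoxb13 were highest per site. Hoxb5 had 9.42, 3.39, 3.14 and 4.66 CPM over 16 sites. Hoxb1, which specifies a segment of the hindbrain, had 7.17, 2.51, 2.51 and 2.70 CPM over 14 sites. Hoxb13, at the caudal end and far from its neighbours, had 4.22, 1.69, 2.20 and 2.33 CPM over 11 sites, none in an island. In each of them aOPC replicate 2 stood above the other 3 libraries. Their log2 differences were -0.64 (SE 0.45), -0.83 (SE 0.50) and -0.32 (SE 0.54), none called, and became 0.21, 0.037 and 0.40 without aOPC replicate 2. The lowest were Hoxb4, known from blood stem cells, at 6.19, 1.87, 1.95 and 2.77 CPM over 23 sites, and Hoxb8, at 3.94, 1.23, 0.879 and 1.26 CPM over 14 sites. The difference of Hoxb8 was -1.18 (SE 0.66, edgeR adjusted p = 0.742) with all libraries, -0.19 without aOPC replicate 2 and -1.83 without aOPC replicate 3.

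In the Hoxc cluster, the most abundant per site were Hoxc9 and Hoxc10, which specify motor neurons of the thoracic and lumbar cord, and Hoxc5. Hoxc9 had 16.3, 9.81, 9.29 and 9.09 CPM over 33 sites, and Hoxc10 had 7.03, 3.15, 3.08 and 2.96 CPM over 14 sites with none in an island. In both genes the aOL libraries lay just below the lower aOPC library. Hoxc5 had 9.70, 3.855, 4.40 and 5.58 CPM over 26 sites, with overlapping groups. The log2 differences were -0.47 (SE 0.24), -0.71 (SE 0.44) and -0.37 (SE 0.40), none called, and without aOPC replicate 2 they were -0.12, -0.09 and 0.37. Hoxc4 (4.36, 1.93, 1.88 and 2.25 CPM over 17 sites) and Hoxc8 (4.64, 1.52, 1.70 and 1.96 CPM over 17 sites), which acts in the brachial cord, were lowest. Their differences were -0.55 (SE 0.53) and -0.68 (SE 0.59), or 0.095 and 0.26 without aOPC replicate 2.

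In the Hoxd cluster, Hoxd3 was highest, with 121 sites, some of them shared with Hoxd4, which lies within its span. It had 58.8 and 29.1 CPM in the aOPC pair and 24.7 and 32.0 CPM in the aOL pair, and 1 aOL library exceeded the lower aOPC library. Hoxd12 and Hoxd13, digit-patterning genes of the 5′ end of the cluster, followed with 10.4, 5.14, 3.77 and 5.84 CPM over 23 sites and 6.05, 1.23, 1.70 and 1.85 CPM over 11 sites. Their log2 differences were -0.63 (SE 0.37) and -0.95 (SE 0.68), none called, and without aOPC replicate 2 they were -0.08 and 0.51. Hoxd1 (2.11, 1.34, 0.942 and 1.55 CPM over 16 sites, 15 of them in islands) and Hoxd8 (1.41, 0.234, 0.440 and 0.813 CPM over 9 sites) were lowest of all members tested. Hoxd8 rested on 10, 4, 7 and 22 counts, and its difference of -0.13 (SE 0.92) became 1.45 without aOPC replicate 2.

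**Figure D5:**
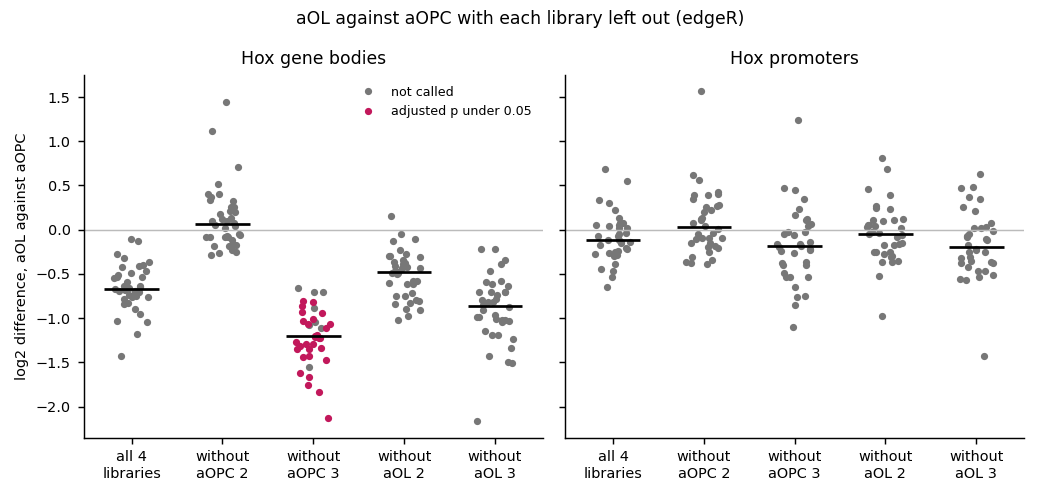
Log2 differences of aOL against aOPC (y axis, edgeR) for each Hox gene body (left) and promoter (right), with all 4 libraries and with each library left out (x axis); horizontal bars are medians and coloured points have an adjusted p under 0.05. The gene-body median is -0.67 with all libraries, 0.06 without aOPC replicate 2 and -1.21 without aOPC replicate 3, the setting with 30 called gene bodies.

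Promoters, which the authors drew from 2 kb upstream to 500 bp downstream of the start, differed less than gene bodies on the scale of the fit. Of 36 tested (all but Hoxb8, Hoxc5 and Hoxc12), 0 were called by edgeR, against 0.768% of all promoters, 0 had an unadjusted p under 0.05 and DESeq2 called 0. The median log2 difference was -0.11, with 23 lower and 13 higher, and turned to 0.03 without aOPC replicate 2, with 17 lower and 19 higher. Promoter scaling depended on aOPC replicate 2, whose TMM factor was 1.75: on library totals alone the median of all promoters was -0.60, that of the Hox promoters -0.68, and 2 were higher. aOPC replicate 2 had the highest CPM in 35 of the 36, and in 79.9% of all promoters. Both aOL libraries were below both aOPC libraries at 5 tested promoters (Hoxa10, Hoxc9, Hoxc10, Hoxd9 and Hoxd10), or 13.9%, beside 20.7% of all promoters. The highest level per site was at Hoxa6 (10.4, 6.60, 6.72 and 7.17 CPM over 18 sites) and Hoxd4 (4.92, 2.40, 2.51 and 3.55 CPM over 8 sites), none of them in an island; these were named after their values were seen. Their log2 differences were 0.22 (SE 0.47) and 0.30 (SE 0.37), which became -0.27 and -0.24 on library totals, and 0.011 and 0.28 without aOPC replicate 2.

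In fixed windows of 20 kb, which do not depend on gene columns, 29 covered the clusters and all were tested. By edgeR 0 were called, against 2.06% of 103058 windows, and DESeq2 called 0. All 29 differences were below 0, with a median of -0.54 and a lowest adjusted p of 0.437, and 5 windows had an unadjusted p under 0.05 with a lower value in aOL, beside 4.74% of all windows. The 2 windows of the gap between Hoxb13 and Hoxb9 (chr11:96220001-96260000) were nearest to 0, at -0.08 and -0.06. Without the filter on low counts 9 windows were called lower (2.67% of all windows), and without aOPC replicate 3 there were 25 (5.1%). Without aOPC replicate 2 the median was 0.04, and 19 windows were higher.

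Among single CpG sites, 54 of the 1164 had at least 10 reads in at least 2 libraries, 3 of them in islands. edgeR and DESeq2 called 0 of them, against 2.29% of all tested sites by edgeR, and no region of 2 kb with at least 2 called sites was found. The differences were below 0 at 44 sites and above at 10, with a median of -0.52 and a lowest adjusted p of 0.284 at the Hoxc9 intron site shown above. With p under 0.05 before adjustment, 6 sites were lower in aOL and 0 higher, beside 4.31% of all sites in the same direction. Without aOPC replicate 2 the median was -0.10.

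In RNA, 1 of the 39 Hox symbols was listed (2.56%), whereas 10932 of the 20488 symbols of the RRHP tables were (53.4%). How the authors chose the listed genes is not stated, so an unlisted gene is not shown to be silent. The listed member was Hoxd1, with log2 values of 7.12 and 9.21 in the aOPC pair and 7.79 and 7.78 in the aOL pair. The aOL libraries agreed closely and lay between the aOPC libraries, so that the sign of the difference followed the aOPC library used. The log2 difference was -0.38 (SE 0.75, limma adjusted p = 0.773), and 0 Hox genes were called, against 0.0808% of 11133 genes tested. Without aOPC replicate 2 it was -1.43 (limma adjusted p = 0.0183), and 17.1% of all genes passed in that direction. Without aOPC replicate 3 it was 0.67 (limma adjusted p = 0.0484), of the opposite sign, and 9.9% of all genes passed. In both settings the lone aOPC library is assumed to vary like the aOL pair, whose Hoxd1 values were nearly equal, so these p say nothing of the spread between aOPC libraries. Gene-body 5hmC of Hoxd1 was among the lowest of the members, and its promoter had 5.34, 2.86, 2.45 and 3.33 CPM over 24 sites.

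The genes that keep Hox clusters silent or active were present in RNA. Of 34 polycomb genes, 32 were tested and 0 called by limma, with 22 above 0, beside 51.3% of all genes, and a median log2 difference of 0.40, against a median of 0.02 over all genes (0.43 without aOPC replicate 2 and 0.21 without aOPC replicate 3). Unadjusted p was under 0.05 for 6 with a higher and 1 with a lower value, beside 12.1% and 12% of all genes, a background that holds for the lists below as well. Pcgf3 and Phc3, subunits of the polycomb repressive complex that modifies histone H2A, had the smallest p among the higher ones. Pcgf3 was at 10.3 and 10.6 in the aOPC pair and 11.3 and 11.2 in the aOL pair, and Phc3 at 11.3, 10.4, 12.3 and 12.1. Among the lower ones were Pcgf1 (9.225, 9.16, 8.05 and 8.30) and the histone methyltransferase Ezh2 (9.65, 9.34, 8.82 and 8.99). The adjusted p of these 4 genes was 0.133 to 0.215.

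Of 13 trithorax and demethylase genes, which oppose polycomb, 0 were called, with 8 above 0 and a median of 0.13 (0.34 without aOPC replicate 2 and -0.36 without aOPC replicate 3), and 1 higher and 2 lower at an unadjusted p under 0.05. Kdm6b, a demethylase of the polycomb mark, was at 8.90 and 8.99 in the aOPC pair and 7.47 and 7.76 in the aOL pair (log2 difference -1.33, limma adjusted p = 0.124), whereas its relative Kdm6a was at 12.2, 12.02, 12.7 and 12.7 (0.60, adjusted p = 0.187). Dpy30 (-0.74) and Rbbp5 (0.53), subunits of the methyltransferase complexes, were the others named. Hox cofactors, homeodomain proteins that bind DNA with Hox proteins, had 8 tested and 0 called, with 5 above 0, a median of 0.21 that became -0.10 without aOPC replicate 3, and 1 higher and 2 lower at an unadjusted p under 0.05. Meis3 (-1.25) and Meis2 (-0.81) were the lower pair, and Pknox1 (0.63) and Pbx3 (0.31) the higher pair.

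Of 18 genes upstream of Hox expression, such as retinoid receptors, 8 were tested and 0 called, with a median of 0.40 and 1 higher at an unadjusted p under 0.05. The retinoid receptor Rxra was at 8.29 and 8.19 in the aOPC pair and 9.33 and 9.36 in the aOL pair (1.11, limma adjusted p = 0.127), while Rxrb (-0.28) and the retinoic acid-making enzyme Aldh1a1 (0.52) were the others named. Forebrain and midbrain factors had 4 tested, 0 called and a median of -0.50 (-0.10 without aOPC replicate 2), with 1 higher at an unadjusted p under 0.05. The midbrain-hindbrain factor En2 was at 9.21, 8.01, 9.95 and 10.03 (1.38, and 0.78 without aOPC replicate 3), and the forebrain factor Dlx2 at 7.43, 6.14, 6.08 and 5.42 (-1.03, and -0.38 without aOPC replicate 2). Its relative Dlx1 was at 7.57, 6.14, 5.38 and 0.318, and the difference of -4.003 (SE 1.83) rested on aOL replicate 3, without which it was -1.47.

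Other homeobox genes were listed for 8 of 50, with 6 tested and 0 called. Of the 6, 5 were below 0, and the median was -0.74 (-0.29 without aOPC replicate 2 and -1.20 without aOPC replicate 3). Dlx1 and Dlx2, both among the 5, are also part of the forebrain and midbrain list, so the 2 lists are not separate observations. Six2, among those below 0, was at 5.01 and 5.08 in the aOPC pair and 0.318 and 1.63 in the aOL pair. It passed the filter on low values through the aOPC libraries alone, so its difference is no support. The 5 below 0 and the median include it all the same. Apart from Six2, Dlx1 and Dlx2, the tested genes were Nkx2-9 (-0.46), Nkx6-2 (-0.29) and Nkx2-2. Nkx2-2, a factor of the oligodendrocyte lineage, had a difference of 0.04, which became -0.13 without aOPC replicate 2. Genes next to the clusters had 6 tested and 0 called, with a median of 0.39 and 1 lower at an unadjusted p under 0.05. Mtx2, beside the Hoxd cluster, was at 11.9, 12.03, 11.4 and 11.5, and Smug1, beside Hoxc, at 9.82, 9.86, 10.3 and 10.4; Snx10 had a difference of 0.74 (0.41 without aOL replicate 2). Beside these lists, the astrocyte markers (8 of 8 listed) had library medians of 10.5, 9.9995, 9.01 and 9.65, higher in both aOPC libraries, with 6 of 8 lower in aOL and a median difference of -0.68 (-0.16 without aOPC replicate 2). The microglia markers (10 of 11) were at 8.42, 7.65, 7.5996 and 7.20, with 8 of 10 lower in aOL and a median of -0.53 (-0.18 without aOPC replicate 2), and the neuron markers (5 of 8) at 7.42, 4.98, 5.28 and 4.46. The progenitor markers (11 of 12) had medians of 9.34, 7.07, 8.34 and 9.33. Of the endothelial and mural markers 2 of 8 were listed, and Cldn5, which passed the filter through the aOL libraries alone, was at 0.333 and 1.80 in the aOPC pair and 5.92 and 7.13 in the aOL pair. The part of these other cell types in the listed differences was not tested.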

How the data were processed

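The deposited RNA tables give a log2 value for each gene symbol, whose near-equal quantiles mark quantile normalization by the authors. Per the study's methods reads were aligned to mm10 and counted over exons, and the submitters' processing notes name BWA and DESeq2 1.2.5. The deposited RRHP tables give read counts, not normalized, for each CpG on each strand (mm10), with the authors' promoter, exon, intron and CpG island columns. The aligner, treatment of duplicates and any site filter are not given in the sources used here. Without molecular identifiers, intervals and floors reflect counting error alone, and log2 RNA values give no depth.

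A site missing from a table was given a count of 0. Of the listed sites, 100% lay at the CpG of a CCGG of GRCm38. Counts were summed over gene columns (a site named for 2 genes counts for both), 20 kb windows and clusters, and tested with edgeR 4.0.16 (glmQLFit, TMM, filterByExpr; sites needed 10 reads in at least 2 libraries) over all features, adjusted p under 0.05. For RNA, a log2 value of 5 or more was required in 2 libraries, and the test was limma 3.58.1 (p under 0.01 and adjusted p under 0.05). Alternatives used DESeq2 1.42.0, other scalings, filters and left-out libraries. Scripts ran in R 4.3.3 and in Python 3.11.15 with pandas 2.3.3, numpy 2.4.6 and matplotlib 3.10.9, and both fits were tested on simulated data. Single values per library were compared by exact two-sided permutation, whose smallest p for 2 against 2 libraries is 0.333.

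The members and gene lists were chosen with earlier results of these data known. Named were, in each cluster, the 3 members with the highest and the 2 with the lowest gene-body count per listed site and the strongest site, and in each list the 2 genes with the smallest RNA p in each direction; values of a few of these are not reported here.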

Additional observations from a re-analysis of the deposited data

How the results depend on the processing

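Most differences in 5hmC between aOL and aOPC rested on aOPC replicate 2. Leaving out each library in turn gave a log2 difference of -1.43 to 0.67 for Hoxd1 RNA, 0 to 30 called gene bodies with a median of -1.21 to 0.062, 0 to 25 called windows with a median of -1.03 to 0.039, and a site median of -0.95 to -0.10; 1 window was called without aOL replicate 3, beside 1.25% of all windows, and calls of promoters, sites and regions stayed at 0. The ratio of aOL over aOPC ranged from 0.506 to 1.03 (Hoxa), 0.501 to 1.01 (Hoxb), 0.491 to 1.03 (Hoxc), 0.447 to 0.983 (Hoxd) and 0.852 to 1.04 (island share). Named gene bodies that changed sign when a library was left out ranged from -0.66 to 0.13 (Hoxa2), -0.86 to 0.095 (Hoxa3), -1.19 to 0.41 (Hoxa13), -1.23 to 0.21 (Hoxb5), -1.44 to 0.037 (Hoxb1), -0.88 to 0.40 (Hoxb13), -1.35 to 0.34 (Hoxb4), -0.93 to 0.37 (Hoxc5), -1.05 to 0.10 (Hoxc4), -1.32 to 0.26 (Hoxc8), -1.75 to 0.51 (Hoxd13) and -1.08 to 1.45 (Hoxd8). Without a filter on low counts 9 windows were called; the cause was not tested. The Hoxa6 promoter changed to -0.27 on library totals and -0.018 without island sites, and the Hoxd4 promoter to -0.24 on library totals and -0.12 with sites of at least 3 reads in every library. The mean fold of the rest of the genome over the clusters was 3.98 with that site filter, 2.84 at 11 to 30 CpG, and 2.04 to 2.58 with a library left out. Of 404 alternative values, 353 counted as unchanged. For single features this meant the same direction and call, and for counts, medians, ratios and folds a change within set limits. A median counted as unchanged within the spread between replicates, whatever its sign. The promoter median, for example, was -0.11, and 0.03 without aOPC replicate 2. Low counts limit promoters, islands and single sites, of which 54 could be tested.

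Same-numbered aOPC and aOL libraries come from different reporter lines. Their deviations from the group means did not move in the same direction (correlation -0.07 in RNA, -0.42 in gene bodies and -0.20 in Hox gene bodies). The numbers were therefore not used as pairs. With so few libraries these values cannot exclude that same-numbered libraries were processed together. With the replicate number as a block, 0 gene bodies (median -0.56), 0 promoters (-0.12), 0 windows (-0.50), 0 sites (-0.54) and 0 regions were called, the Hoxd8 gene body was at 0.026 and Hoxd1 RNA at -0.38. With the numbers crossed, added after the data were seen, 3 gene bodies (2.65% of all), 11 windows (3.3% of all) and 0 promoters were called.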
